A study of Cavia porcellus with 30 samples.

Results

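In the kidneys of guinea pigs given mercuric chloride, 109 of 25824 transcripts were near-silent in the vehicle animals and present after the high dose at 33 h. They were chosen by their own values: a mean below 0.5 TPM over the 10 vehicle animals and a mean of at least 1.5 TPM over the 5 animals given the high dose and sampled at 33 h. TPM, the unit Kallisto gives, is a share of all transcript molecules scaled to a fixed total and already divided by transcript length, so levels of different transcripts can be set side by side. Below the vehicle bound there were 8264 transcripts, and the 109 were the ones that also reached the upper bound. The converse rule, at least 1.5 TPM in vehicle and below 0.5 TPM after the high dose at 33 h, was met by 61 transcripts. The vehicle values and the high-dose values at 33 h are therefore described without a test, and the levels at 9 h and with the low dose at 33 h are the ones that the rule did not use.

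The study took kidney RNA from 30 male Hartley guinea pigs, 5 in each of 6 groups. Animals were bought at an age of 4 weeks, were fitted with a vascular catheter, and were given 1 intraperitoneal injection of saline (vehicle, 1 ml/kg) or of mercuric chloride at 1.00 mg/kg (low dose) or 1.50 mg/kg (high dose), with kidneys taken 9 or 33 h later. All groups shared the catheter surgery and a fast before sampling, and each kidney was frozen and powdered whole, so every value is an average over all cell types of 1 animal's kidney. Animals are called here by the number in their label, and both doses of a time share the vehicle animals of that time. Total estimated counts per animal ranged from 23134713 to 36072327, with a median of 27824747. The tissue rests on the labels and was not checked with marker genes, because no symbol stands beside a transcript in the files. None of the 109 could be given a symbol or a sequence, and they are named by their Ensembl transcript identifiers. The readable part of a supplementary table of the study lists an Ensembl gene and a rat NCBI gene number for 11 of them.

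Mercuric chloride is taken up mainly by the epithelium of the proximal tubule, where it binds thiol groups and causes acute kidney injury. A healthy kidney holds many transcripts at traces only, among them ones that belong to injured or dividing tubule cells and ones that belong to blood cells. A transcript that climbs from a trace can reflect more RNA per cell or more cells that carry it, and in powdered whole kidney these cannot be told apart.

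A transcript was counted as on in an animal at 1.5 TPM or more, the level the rule asks of the high dose, and as on in a group when at least 3 of its 5 animals had it on. Near-silent did not mean absent: each of the 109 had counts in at least 1 vehicle animal, 50 had counts in all 10, and 9 were at or above 1.5 TPM in at least 1 vehicle animal. Single vehicle animals had between 0 and 4 of the 109 on. In the high-dose animals at 33 h the number was 66, 93, 81, 89 and 66 in animals 53 to 57, or 79.0 ± 12.6 (SD, n = 5). All of these animals lay above every other animal of the study.

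At 9 h, the 109 were on far less often. The low-dose animals 33 to 37 had 8, 7, 9, 12 and 16 on (10.4 ± 3.65, SD, n = 5). The high-dose animals 38 to 42 had 18, 7, 15, 3 and 20 on (12.6 ± 7.30, SD, n = 5). The doses overlapped at 9 h, and high-dose animal 41, with 3, was inside the range of the vehicle animals.

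With the low dose at 33 h, the animals spread widely. Animals 48 to 52 had 40, 3, 4, 9 and 22 on (15.6 ± 15.6, SD, n = 5). Animals 49 and 50 were inside the vehicle range of 0 to 4, while animals 48 and 52 had more on than any animal at 9 h. The summed TPM of the 109 followed the same order in this group, from 35.8 in animal 49 to 192 in animal 48, against 19.0 to 41.1 in the vehicle animals and 320.1 to 602 with the high dose at 33 h.

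**Figure D1:**
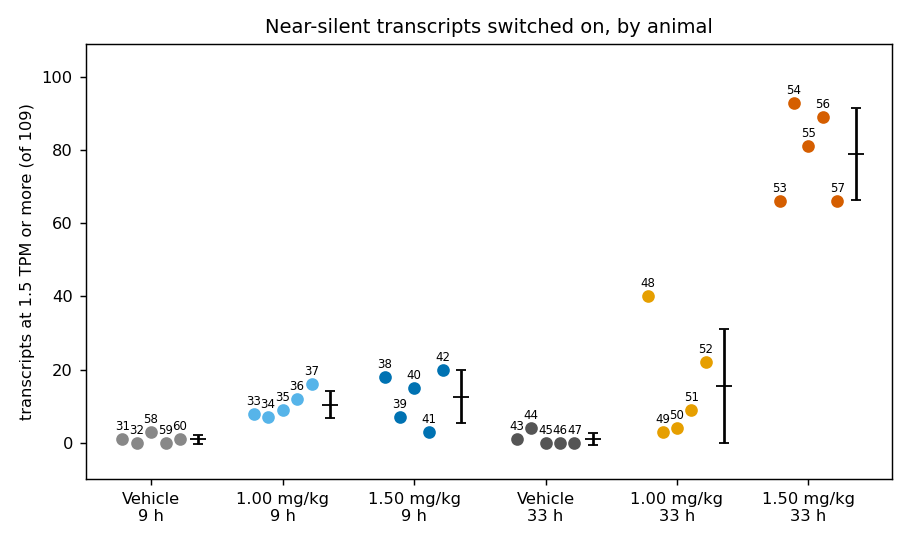
The number of the 109 transcripts at 1.5 TPM or more in each of the 30 animals, by dose and time, with the animal number over each point and the group mean ± SD beside the points (n = 5). The high-dose animals at 33 h lie between 66 and 93, and the low-dose animals at 33 h spread from 3 to 40.

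The other near-silent transcripts, which did not meet the upper bound, give a measure of how often a trace passes 1.5 TPM. Of these 8155, between 8 and 24 were on in a vehicle animal and between 31 and 75 in an animal at 9 h after either dose. The vehicle mean below 0.5 TPM that chose them holds down the vehicle counts, so nothing is read from that gap. The low-dose animals at 33 h had between 19 and 72 on, and animal 48, which had the most of the 109 on, had 26. The high-dose animals at 33 h had between 31 and 74 on, a count held down by the rule, which moved any transcript with a mean of at least 1.5 TPM into the 109.

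Group by group, at 9 h, 8 of the 109 were on after the low dose and 9 after the high dose. At 33 h, 5 were on after the low dose and 85 after the high dose. Over all 8264 near-silent transcripts the shares on in these 4 groups were 0.266%, 0.339%, 0.0968% and 1.09%, and the last of these is set by the rule. With 1 animal left out and at least 3 of the remaining 4 asked for, the count with the low dose at 9 h fell to 4 without animal 35, 36 or 37. With the high dose at 9 h it fell to 4 without animal 38 or 40 and to 5 without animal 42. With the low dose at 33 h it fell to 0 without animal 48 or 52 and to 1 without animal 51. A transcript on in exactly 3 animals leaves the count whenever 1 of them is left out. In these groups 4, 5 and 5 of the 109 were on in exactly 3. By the group mean, 10, 10 and 12 of the 109 were at 1.5 TPM or more with the low dose at 9 h, the high dose at 9 h and the low dose at 33 h. Over all 8264 near-silent transcripts, 58, 34 and 35 reached that mean, 48, 24 and 23 of them outside the 109. All 5 animals lay above all 10 vehicle animals for 1, 5 and 0 of the 109 in those groups, and for 83 with the high dose at 33 h, where the near-silent background was 0.194%, 0.399%, 0.0847% and 2.65%. Since the vehicle values chose the 109, nothing is read from these separations.

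By when they were on, the 109 fell into 4 sets. These sets rest on the same counts and move with single animals in the same way. There were 11 that were on at 9 h with at least 1 dose, 3 that were on at 33 h with the low dose but not at 9 h, and 76 that were on with the high dose at 33 h and in no other group. The remaining 19 were on in fewer than 3 animals of every group. The 76 had means between 1.50 and 17.8 TPM with the high dose at 33 h (median 2.48 TPM), while their median mean was 0.436 TPM with the high dose at 9 h and 0.668 TPM with the low dose at 33 h. The 19 lay lower, between 1.51 and 2.39 TPM with the high dose at 33 h (median 1.66 TPM). At 33 h with the high dose, 38 of the 109 were on in all 5 animals, 22 in 4, 25 in 3, 18 in 2 and 6 in 1.

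**Figure D2:**
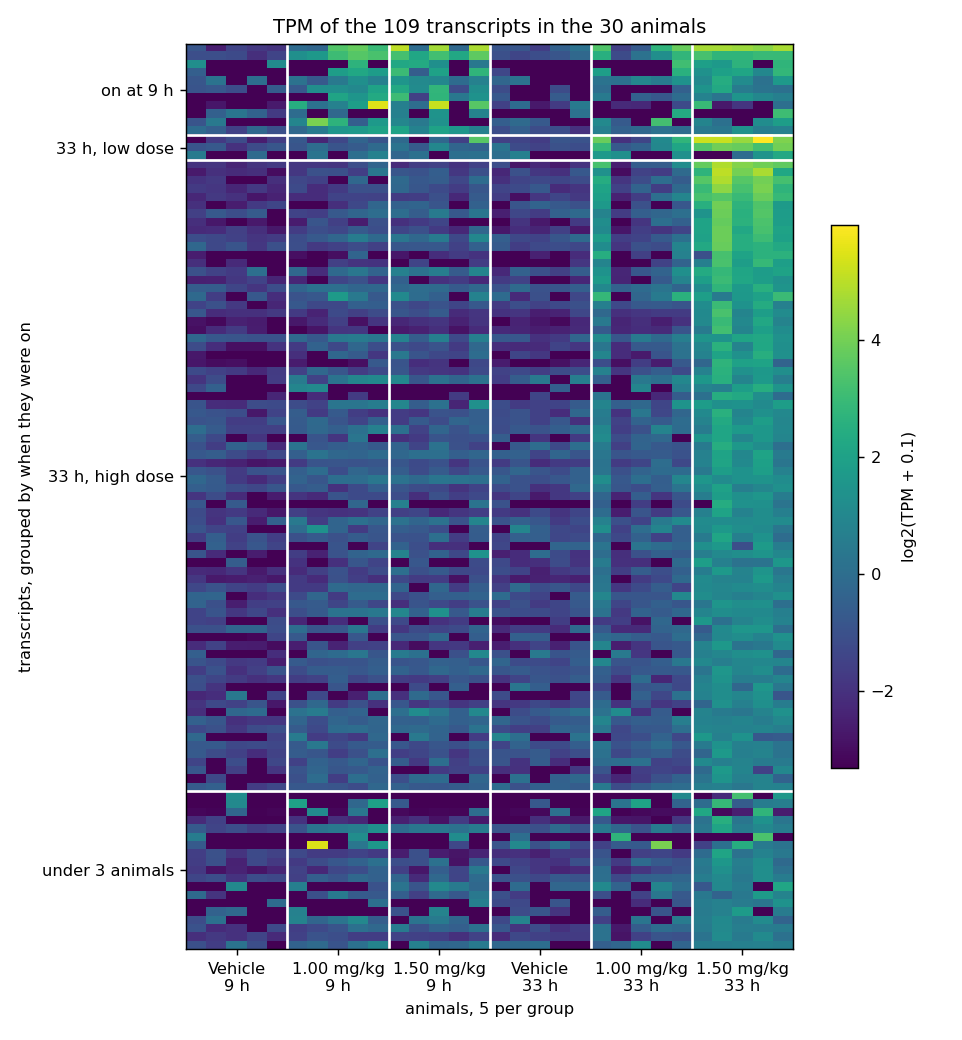
Each row is 1 of the 109 transcripts and each column 1 of the 30 animals, in label order within 6 groups of 5, with colour for log2(TPM + 0.1) and white lines between groups and between the 4 sets. The 76 transcripts of the third set are bright in the rightmost group, the high dose at 33 h, and, more weakly, in the first column of the low dose at 33 h, which is animal 48.

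The means with the high dose at 33 h, which the rule used, had a median of 2.17 TPM and reached 35.2 TPM. Of the 109, 17 had a mean of at least 5 TPM, 32 of at least 3 TPM, and 44 lay under 2 TPM. The mean was 8.69 times the vehicle mean in the median and between 3.15 and 195 times in single transcripts. Animal 54 held the highest of the 5 values for 57 of the 109, animal 56 for 23, animal 57 for 15, animal 53 for 9 and animal 55 for 5. Of the 17 most abundant, 16 were on in all 5 animals, which their choice by the mean of the same animals favours. The exception, ENSCPOT00000013534.3, singled out after its values were seen, was at 0.376 TPM in animal 53 and at 9.52, 4.10, 6.21 and 6.13 TPM in animals 54 to 57.

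The most abundant was ENSCPOT00000043375.1, of 805 bases. It lay between 0 and 0.442 TPM in the 10 vehicle animals (mean 0.242 ± 0.139, SD) and at 36.9, 36.2, 22.8, 62.4 and 17.9 TPM in the high-dose animals 53 to 57 at 33 h. The 33 h low-dose animals 48 to 52 were at 14.3, 0.148, 0.282, 2.03 and 6.59 TPM, so 3 were above every vehicle animal and 2 were among them. At 9 h it was a trace with the low dose (0.094 to 0.704 TPM), and with the high dose animals 38 to 41 lay between 0 and 0.802 TPM while animal 42 stood at 11.6 TPM. One high-dose kidney of the 5 thus had this transcript on at 9 h.

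ENSCPOT00000036568.1 (1898 bases) was the next of the late ones. Its vehicle mean was 0.154 ± 0.0916 TPM (SD, n = 10), and the high-dose animals 53 to 57 at 33 h were at 13.4, 29.1, 18.6, 15.2 and 12.8 TPM. With the high dose at 9 h all 5 animals stayed between 0.121 and 0.255 TPM, within the vehicle range, which reached 0.371 TPM. With the low dose at 33 h, animal 48 was at 9.50 TPM, animal 52 at 2.19 TPM, and the other three at 0.575 TPM or less.

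ENSCPOT00000003543.3, ENSCPOT00000032308.1, ENSCPOT00000032577.1 and ENSCPOT00000043297.1 were also on in all 5 high-dose animals at 33 h. Their high-dose means at 33 h were 17.4 ± 12.3, 15.3 ± 7.82, 12.3 ± 6.28 and 10.1 ± 2.84 TPM (SD, n = 5), and their high-dose means at 9 h were 0.404 ± 0.146, 0.608 ± 0.241, 0.441 ± 0.200 and 0.291 ± 0.168 TPM. None of the 4 was on in any animal at 9 h. Their vehicle means were 0.181 ± 0.147, 0.184 ± 0.120, 0.214 ± 0.118 and 0.147 ± 0.0791 TPM (SD, n = 10). In the low-dose animals at 33 h, animal 48 had each of them on, at 2.51, 5.25, 4.13 and 3.68 TPM, and of the remaining animals only animal 52 reached 1.5 TPM in 1 of them, with 1.77 TPM of ENSCPOT00000043297.1. The spread within the high dose was wide for ENSCPOT00000003543.3, which lay at 6.49, 32.5, 16.2, 27.2 and 4.53 TPM in animals 53 to 57.

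ENSCPOT00000013166.3 (3137 bases) was more even. The high-dose animals 53 to 57 at 33 h were at 10.9, 15.4, 14.0, 9.03 and 15.7 TPM, against a vehicle mean of 0.430 ± 0.246 TPM (SD, n = 10). The 33 h low-dose animals 48 to 52 were at 7.27, 0.502, 0.653, 1.85 and 4.26 TPM, with the same 3 animals high as for ENSCPOT00000043375.1. At 9 h only high-dose animal 40, with 1.87 TPM, had it on. The third transcript on at 33 h with the low dose but not at 9 h, ENSCPOT00000032214.1, was chosen by that pattern after its values were seen: it was on in low-dose animals 48, 49 and 52 (3.16, 2.36 and 2.43 TPM) and, with the high dose at 33 h, in animals 56 and 57 only (2.67 and 4.74 TPM). Vehicle animal 44 (1.56 TPM) and low-dose animal 37 at 9 h (1.61 TPM) had it on as well.

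Over the 98 transcripts not on at 9 h, 70 were on in no treated animal at 9 h at either dose, and 60 had a high-dose mean at 9 h that was still below 0.5 TPM. Not being on at 9 h is what defines the 98, which favours these counts. None of the 98 had a higher mean with the high dose at 9 h than at 33 h. That direction is favoured by the lower bound at 33 h and by the choice of the 98 at 9 h. Over all 109, 19 had reached at least 50% of their 33 h high-dose mean by 9 h.

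**Figure D3:**
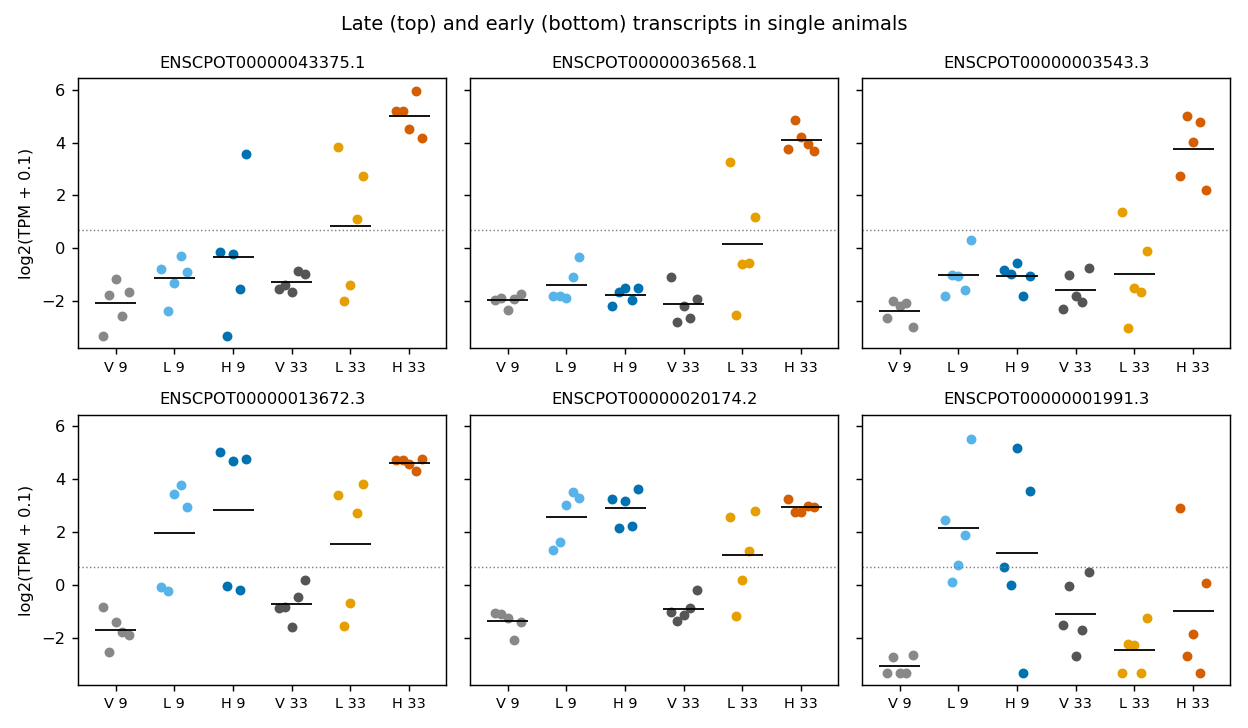
TPM of 6 transcripts in single animals on a log2(TPM + 0.1) scale, by group: V, vehicle; L, 1.00 mg/kg; H, 1.50 mg/kg, at 9 or 33 h, with a line at the mean of the 5 log2 values and a dotted line at 1.5 TPM. The 3 in the top row are above the dotted line in all 5 high-dose animals at 33 h and in few others, and the 3 in the bottom row are above it in animals at 9 h as well.

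Among the 11 transcripts on at 9 h, 6 were on with both doses, 2 with the low dose alone and 3 with the high dose alone. The 6 were ENSCPOT00000013672.3, ENSCPOT00000020174.2, ENSCPOT00000047635.1, ENSCPOT00000038137.1, ENSCPOT00000042653.1 and ENSCPOT00000013209.3, the last of which was named after its values were seen. Between the times, 5 of the 11 had a higher mean with the high dose at 9 h than at 33 h, and 8 had a lower mean with the low dose at 33 h than at 9 h. The choice of the 11 by their values at 9 h favours these directions. Only 2 of the 11, ENSCPOT00000013672.3 and ENSCPOT00000020174.2, were also on with the low dose at 33 h, and 4 were on in fewer than 3 of the high-dose animals at 33 h.

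ENSCPOT00000013672.3 (2284 bases) had the highest high-dose mean of the early transcripts at both times. With the low dose at 9 h, ENSCPOT00000001991.3 (mean 11.4 TPM) and ENSCPOT00000020174.2 (mean 6.91 TPM) had higher means. The supplementary table pairs it with the Ensembl gene ENSCPOG00000013537 and the rat NCBI gene number 29461. The vehicle animals lay between 0.0695 and 1.03 TPM, with a mean of 0.396 ± 0.282 TPM (SD, n = 10). At 9 h the low-dose animals 33 to 37 were at 0.848, 0.742, 10.8, 13.6 and 7.67 TPM, and the high-dose animals 38 to 42 at 32.6, 0.873, 25.7, 0.784 and 27.2 TPM. Both doses thus held 2 animals within the vehicle range and 3 far above it, and the means of 6.72 ± 5.80 TPM for the low and 17.4 ± 15.4 TPM for the high dose (SD, n = 5) average over that split. At 33 h the low-dose animals 48 to 52 were split as well, at 10.5, 0.239, 0.515, 6.56 and 14.0 TPM, whereas the high-dose animals 53 to 57 were all on within a narrow range of 26.5, 26.4, 23.8, 19.8 and 26.8 TPM.

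ENSCPOT00000020174.2 (3109 bases) was the only 1 of the 109 that was on in every animal of both doses at 9 h. The same table pairs it with ENSCPOG00000021634 and the rat NCBI gene number 307404. Its vehicle mean was 0.372 ± 0.166 TPM, with a highest value of 0.781 TPM. At 9 h it was at 2.39, 2.98, 8.09, 11.4 and 9.72 TPM in low-dose animals 33 to 37 and at 9.38, 4.39, 8.89, 4.63 and 12.4 TPM in high-dose animals 38 to 42. The 2 lowest values of each dose belonged to the animals in which ENSCPOT00000013672.3 was near the vehicle level. The high-dose level at 33 h (7.60 ± 1.15 TPM, SD, n = 5) was close to that at 9 h (7.95 ± 3.42 TPM), while with the low dose at 33 h the animals were at 5.77, 0.338, 1.04, 2.33 and 6.89 TPM, 1 of them among the vehicle values.

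ENSCPOT00000047635.1 (345 bases) and ENSCPOT00000038137.1 (384 bases) are short transcripts with few counts. ENSCPOT00000047635.1 was at 0 in low-dose animals 33 and 34 and at 3.47, 4.58 and 3.41 TPM in animals 35 to 37. In the high-dose animals 38 to 42 it was at 7.91, 0.572, 3.86, 0 and 6.73 TPM. The pattern of 3 animals on and 2 off at each dose held for the same animals in ENSCPOT00000038137.1, at 0, 0, 4.15, 2.76 and 4.90 TPM with the low dose and 8.13, 0.240, 6.71, 1.21 and 2.59 TPM with the high dose. ENSCPOT00000038137.1 was lower at 33 h, with high-dose means of 3.78 ± 3.47 TPM at 9 h and 1.77 ± 0.600 TPM at 33 h (SD, n = 5), and the latter rests on a mean of 7.80 counts.

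ENSCPOT00000013209.3 was on in all 5 high-dose animals at 9 h, at 4.10, 1.64, 3.99, 2.81 and 1.54 TPM in animals 38 to 42, and in low-dose animals 35 to 37 (2.82, 3.11 and 3.99 TPM). At 33 h its high-dose animals lay between 1.16 and 2.53 TPM, 2 of 5 at or above 1.5 TPM. The remaining 2 that were on with the high dose alone at 9 h, besides ENSCPOT00000040454.1, were singled out by that pattern. ENSCPOT00000025456.2 was at 4.59, 5.02, 2.35, 0 and 1.23 TPM in animals 38 to 42, but vehicle animals 31 and 60 also had it on, at 2.30 and 2.10 TPM. Its highest value at 9 h was in low-dose animal 36, at 6.28 TPM. ENSCPOT00000045611.1 was at 2.75, 1.98, 1.84, 0.844 and 1.57 TPM in animals 38 to 42, above the highest vehicle animal (1.06 TPM) in 4 of 5. Low-dose animals 36 and 37 at 9 h had it on as well, at 2.35 and 1.54 TPM.

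ENSCPOT00000042653.1 (2399 bases) was on in 4 of 5 animals at each dose at 9 h, with means of 2.19 ± 1.23 TPM for the low and 3.27 ± 2.54 TPM for the high dose. High-dose animal 41 (0.338 TPM) and low-dose animal 33 (0.504 TPM) were the exceptions. With the low dose at 33 h no animal had it on, and the highest was animal 48 with 0.894 TPM.

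ENSCPOT00000001991.3 (938 bases) was an early transcript with very large differences between animals. The vehicle animals were between 0 and 1.28 TPM. At 9 h it was at 5.45, 0.991, 1.58, 3.56 and 45.6 TPM in low-dose animals 33 to 37 and at 1.50, 0.893, 36.4, 0 and 11.5 TPM in high-dose animals 38 to 42, where animal 38 was just below the level counted as on. At 33 h it was at 0.323 TPM or less in all 5 low-dose animals, and with the high dose animal 53 alone was on, at 7.51 TPM, with 86.5% of the summed TPM of that group. It met the rule through that 1 animal.

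**Figure D4:**
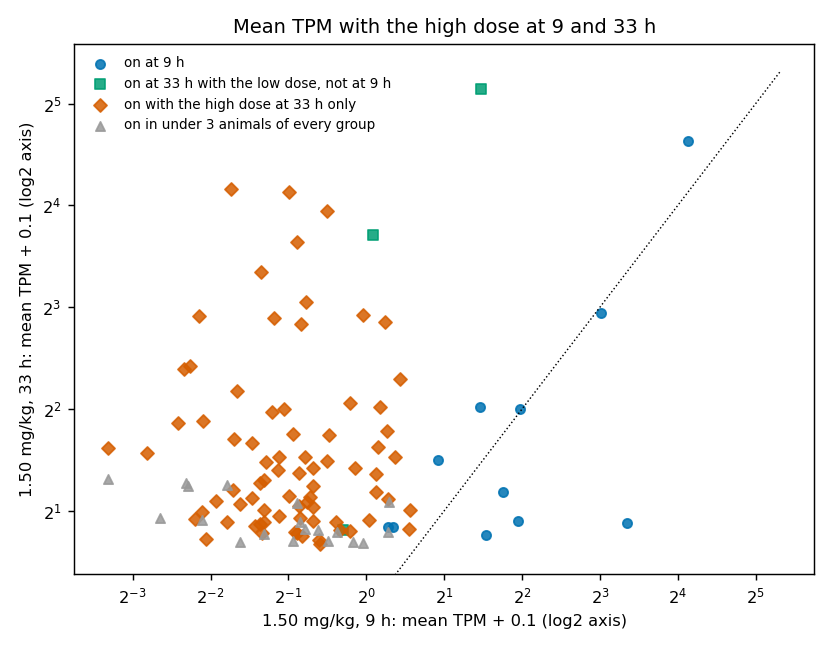
Mean TPM + 0.1 of the 109 transcripts with the high dose at 9 h (x) and at 33 h (y), both on log2 axes, with symbols for the 4 sets by when a transcript was on and a dotted line of equal values. Only 5 transcripts, all on at 9 h, lie below the line, and the y values start at 1.5 TPM because the rule set that bound.

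The doses were compared at 9 h with edgeR's quasi-likelihood test, fitted to all 19729 transcripts that passed a filter on low counts. Of the 109, 103 passed the filter, and ENSCPOT00000005194.3, ENSCPOT00000024758.2, ENSCPOT00000031541.1, ENSCPOT00000006391.3, ENSCPOT00000044299.1 and ENSCPOT00000044031.1 did not. Those named nowhere else are named because they were not tested. The filter took in the high-dose animals at 33 h, so the shares below describe the tested transcripts and not all 109. A transcript could pass it through those animals with few counts in the groups compared, and could then hardly be called. ENSCPOT00000000753.3, singled out after its values were seen, had 0 to 2 counts in each treated animal at 9 h. The absence of a call is therefore not read as equal levels. None of the 103 differed between the doses at an adjusted p of at most 0.1, where the share called over all transcripts was 0%. At an unadjusted p under 0.05 there were 3 of the 103 (2.91%), against 638 of all transcripts (3.23%), and DESeq2 also called none of the 103. The median log2 difference, high minus low dose, was 0.17 over the 103 and -0.0021 over all transcripts, and the high-dose mean TPM was the higher one for 60 of the 109. For ENSCPOT00000013672.3 and ENSCPOT00000020174.2 the log2 differences were 1.40 (SE 1.07) and 0.23 (SE 0.46), neither past the threshold (adjusted p = 0.99 and 0.99), with animals of the doses overlapping for both.

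The times were compared at the low dose in the same way. Of the 103, 1 was called, against 1.54% of all transcripts: ENSCPOT00000001991.3 was lower at 33 h than at 9 h, with a log2 fold change of -6.58 (SE 1.37, edgeR adjusted p = 0.084), all 5 animals at 33 h lying below all 5 at 9 h. None was called higher at 33 h, where 0.512% of all transcripts were, and this split depended on the fit. DESeq2 called 5 higher and 2 lower (9.47% of all transcripts were called in either direction), all 30 animals in 1 fit gave 7 higher and 2 lower (12.4% of all), and leaving out animal 49 gave 1 higher and 0 lower. At an unadjusted p under 0.05 there were 11 of the 103 (10.7%), against 17.0% of all transcripts. The median log2 difference, 33 h minus 9 h, was 0.50 over the 103 and -0.0018 over all transcripts, and 78 of the 109 had a higher mean TPM at 33 h. Without animal 48 the median log2 difference over the 103 was 0.10. The vehicle animals had the same count, with 78 of the 109 at a higher mean at 33 h than at 9 h. The median of the 109 vehicle means was 0.238 TPM at 9 h and 0.313 TPM at 33 h. The part of this in the low-dose difference was not tested. No transcript of the 103 was called lower when any single one of animals 35, 36, 37 and 48 to 52 was left out, so the call of ENSCPOT00000001991.3 was lost each time. Except without animal 49 (305), the calls over all transcripts fell from 303 to between 43 and 87. The low-dose values of ENSCPOT00000001991.3 were at most 0.323 TPM at 33 h and at least 0.991 TPM at 9 h, whichever animal was left out. The late transcripts ENSCPOT00000043375.1 and ENSCPOT00000013166.3 had log2 differences of 3.52 (SE 1.13, edgeR adjusted p = 0.16) and 2.22 (SE 0.68, edgeR adjusted p = 0.15), with 2 of the 5 low-dose animals at 33 h within the range at 9 h, and did not pass the threshold.

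Against the vehicle animals of the same time, whose values helped to choose the 109, edgeR called 19 of 103 higher (18.4%) for the low dose and 30 (29.1%) for the high dose at 9 h, and 0 for the low dose at 33 h. The shares called higher over all transcripts were 11.7%, 16.9% and 0.476%, and those called in either direction were 23.1%, 32.8% and 0.897%. None of the 103 was called lower. At an unadjusted p under 0.05 the shares were 27.2% of the 103 and 31.2% of all transcripts for the low dose at 9 h, 35.0% and 37.4% for the high dose at 9 h, and 35.9% and 15.8% for the low dose at 33 h, where DESeq2 called 13 (12.6%) higher, against 4.06% of all. The 9 h vehicle group holds animals numbered 31 and 32 and, out of sequence with them, animals numbered 58 to 60. The latter had the 3 lowest medians of the 109 values among all 30 animals, 0.155, 0.111 and 0.137 TPM, against 0.314 and 0.218 TPM in animals 31 and 32, and the part of this in the counts at 9 h was not tested. Without animal 58, 59 or 60, the low dose at 9 h had 10, 12 or 11 called higher, and without animal 31 or 32 it had 22 or 16. The count fell as far without treated animals, to 11, 12 and 12 without animals 35, 36 and 37, and with all 10 vehicle animals as controls it was 25. The fits at 9 h share 1 set of vehicle animals, and nothing is read from these counts because the rule fixed 1 side of them.

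With the low dose at 33 h the animals differed widely in how many of the 109 they had on. Of the 109, 58 were on in none of its 5 animals, 29 in 1, 17 in 2 and 5 in 3. Of all 8264 near-silent transcripts, 8045 were on in none, 178 in 1, 33 in 2, 5 in 3, 2 in 4 and 1 in all 5. Animals 49, 50 and 51 had only 3, 4 and 9 of the 109 on. For 19 of the 29, the animal was 48, and for 12 of the 17 the animals were 48 and 52. Animal 48 had the highest value of its group for 74 of the 109 and animal 52 for 19, and 45 were on in at least one of these animals. For 43 of the 109 the value in animal 48 was at or above the lowest high-dose animal at 33 h, and it exceeded the highest of those animals for 0. Of the 17 most abundant, animal 48 had all 17 on, animal 52 had 8, animal 51 had 4, and animals 49 and 50 had none. The median of the 109 values was 1.16 TPM in animal 48 and 0.171 TPM in animal 49, against 0.111 to 0.314 TPM in the vehicle animals.

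At the other end, some transcripts met the bounds through 1 or 2 animals. For 10 of the 109, 1 animal held over 50% of the summed TPM of the high-dose group at 33 h, and for 3 it held over 80%. The last were ENSCPOT00000001991.3, ENSCPOT00000044299.1 and ENSCPOT00000040454.1. ENSCPOT00000044299.1, of 171 bases, was at 10.04 TPM in animal 56 and at 0 in the other four, and a mean of 1.97 counts lies behind its mean of 2.01 TPM. ENSCPOT00000040454.1 was at 8.46 TPM in animal 57 and listed at or near 0 in the other four, and with the low dose at 33 h it was at 4.99 TPM in animal 52 alone. It was also on in 3 high-dose animals at 9 h, at 1.54, 2.65 and 1.67 TPM in animals 38, 40 and 42.

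ENSCPOT00000044606.1 (515 bases) was highest at the low dose. At that dose it was at 44.4 TPM in animal 34 (9 h) and at 17.0 TPM in animal 51 (33 h), and the high-dose animals at 9 h lay between 0 and 0.298 TPM. With the high dose at 33 h only animal 55, at 5.46 TPM, had it on, and vehicle animal 44 was at 1.98 TPM. ENSCPOT00000042624.1, singled out after its values were seen, was also highest in animals 34 (17.2 TPM) and 51 (9.13 TPM) of those groups. These 2 were among the 7 of the 109 whose highest group mean was not that of the high dose at 33 h.

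The counts behind the values limit how firmly single transcripts can be described. The 109 had a median length of 1549 bases (171 to 5848), against 1434 bases for the other near-silent transcripts and 2079 bases for all transcripts, and 9 were shorter than 500 bases. Their median estimated count with the high dose at 33 h was 93.8, and 4 had a mean below 10: ENSCPOT00000031541.1 (9.31), ENSCPOT00000044299.1 (1.97), ENSCPOT00000044031.1 (3.03) and ENSCPOT00000038137.1 (7.80). Kallisto divides reads among similar transcripts, which shows as counts that are not whole. Among those with at least 10 counts, all 5 values with the high dose at 33 h were whole, to within 0.001, for 44 of 105 (41.9%), against 41.4% of all transcripts, and the values of the rest depend on how reads shared with other transcripts were divided. Of the late transcripts described, ENSCPOT00000036568.1, ENSCPOT00000003543.3, ENSCPOT00000013166.3, ENSCPOT00000032577.1 and ENSCPOT00000043297.1 had whole counts, and ENSCPOT00000043375.1 and ENSCPOT00000032308.1 did not. ENSCPOT00000032214.1 did not either. Of the 11 early ones, ENSCPOT00000020174.2, ENSCPOT00000001991.3 and ENSCPOT00000038137.1 had whole counts and the remaining 8, ENSCPOT00000013672.3 among them, did not.

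**Figure D5:**
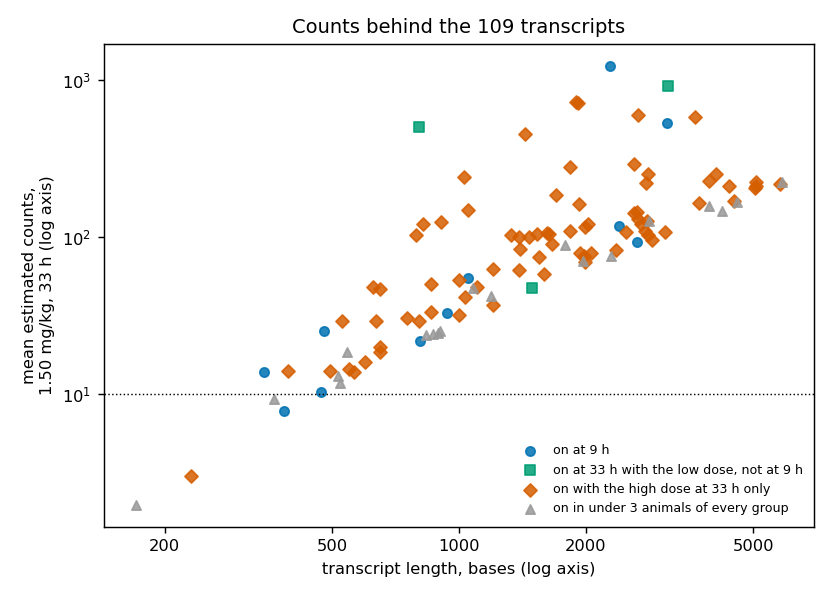
Mean estimated counts over the 5 animals of the high dose at 33 h against transcript length for the 109 transcripts, both on log axes, with symbols for the 4 sets by when a transcript was on and a dotted line at 10 counts. The 4 below the line are 231 bases, 171 bases and, just under it, 384 and 363 bases long.

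The bounds cut through a continuous range of levels. Just inside the vehicle bound were ENSCPOT00000005302.3 (0.482 TPM) and ENSCPOT00000044031.1 (0.480 TPM), and just outside it ENSCPOT00000025457.2 (0.501 TPM) and ENSCPOT00000035229.1 (0.502 TPM). Just inside the bound for the high dose at 33 h were ENSCPOT00000002766.3 (1.50 TPM) and ENSCPOT00000026573.2 (1.51 TPM), and just outside it ENSCPOT00000034439.1 and ENSCPOT00000004289.3 (both 1.46 TPM). Without high-dose animal 54, which held the highest values, 96 transcripts met the bounds, 92 of them among the 109.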

How the data were processed

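RNA from 30 kidneys was measured by RNA sequencing (poly-A selected, stranded libraries). Reads were assigned by the authors with Kallisto, version 0.42.4 in the submitters' processing notes, to the Ensembl Cavia porcellus transcriptome, whose release is not given in the sources used here. For each of 25824 transcripts the authors deposited an estimated count, which is not normalized and need not be whole, and a TPM value, which Kallisto scales for effective length and to a fixed total. The deposited length, in bases, was used as given (unit other).

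The 109 transcripts were found from the deposited TPM values by the 2 bounds, and a transcript was on in a group at 1.5 TPM or more in at least 3 of 5 animals. The transcripts, the lists and the tests were chosen with earlier results of these data known. For the tests, estimated counts were rounded and fitted in R 4.3.3 with edgeR 4.0.16 (filterByExpr over 30 animals and 6 groups, TMM, glmQLFit and glmQLFTest), with only the compared animals in each fit and Benjamini-Hochberg adjustment over all 19729 transcripts. A transcript was called at an adjusted p of at most 0.1, the threshold of the study, which used Sleuth. The script was tested on simulated data. Alternatives were DESeq2 1.42.0, limma-trend (limma 3.58.1), RLE normalization, no filter, all 30 animals in 1 fit, an adjusted p of 0.05, other bounds and levels for on, and each animal left out. Leaving out animals from the counts of transcripts on was added after the data were examined.

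Transcripts were named by a rule: the 8 highest with the high dose at 33 h, the highest in the other treated groups, up to 3 in each direction called between the doses at 9 h or between the times at the low dose, the 3 with the largest share of TPM in 1 animal and the nearest to each bound. Others are marked as singled out after their values were seen. No batch is named in the sources used here, although the label numbers of the 9 h vehicle animals are not in 1 sequence (31 and 32, and 58 to 60). The p-values measure the spread between single animals. Counting depth limits the precision of low values, and the uncertainty of Kallisto's assignment was not used. The RefSeq gene table at hand (assembly mCavPor4.1) lists no Ensembl names and matched 0 of the 109, so checks of cell type markers and gene lists were not run. In vitro samples were not analysed here.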

Additional observations from a re-analysis of the deposited data

Results flagged for a closer look

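Single animals that stood apart from the other four of their group were looked for in 70 groups of values, the number of transcripts on and the TPM of the named ones. In 18 of them 1 animal's gap to its nearest neighbour took up more of the range than Dixon's test allows. Chance alone gives about 1 in 20 for groups not chosen by their values, or 3.5 of 70, but that does not apply here. Of the 18, 12 belong to 4 transcripts named for a large share of TPM in 1 animal or a high mean in a treated group, which favours such gaps, and the values of 1 transcript in several groups are not independent. The number 18 is therefore a description, and none of the gaps was tested further.

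Vehicle animal 44 at 33 h had 4 of the 109 on, against 1 in the next. High-dose animal 42 at 9 h stood apart with 11.6 TPM of ENSCPOT00000043375.1 (next 0.802 TPM). Low-dose animal 48 at 33 h did so for 3 late transcripts, with 9.50 TPM of ENSCPOT00000036568.1 (next 2.19 TPM), 5.25 TPM of ENSCPOT00000032308.1 (next 0.906 TPM) and 4.13 TPM of ENSCPOT00000032577.1 (next 0.813 TPM). Low-dose animal 37 at 9 h stood apart with 1.14 TPM of ENSCPOT00000003543.3 (next 0.391 TPM) and with 45.6 TPM of ENSCPOT00000001991.3 (next 5.45 TPM). For the latter, high-dose animal 53 at 33 h stood apart as well, with 7.51 TPM (next 0.947 TPM).

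ENSCPOT00000044606.1 had 1 animal apart in each treated group: 44.4 TPM in low-dose animal 34 at 9 h, 0.298 TPM in high-dose animal 41 at 9 h, 17.04 TPM in low-dose animal 51 at 33 h and 5.46 TPM in high-dose animal 55 at 33 h. ENSCPOT00000044299.1, of 171 bases, was above 0 in 1 animal of each treated group, at 2.24 TPM in animal 36, 2.20 TPM in animal 41, 6.41 TPM in animal 49 and 10.04 TPM in animal 56. ENSCPOT00000040454.1 stood at 4.99 TPM in low-dose animal 52 and at 8.46 TPM in high-dose animal 57 at 33 h, with the other four animals of each group at or near 0.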

How the results depend on the processing

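No paired analysis was possible because animal numbers are not shared between groups. The number of transcripts that met the bounds was 19 with bounds of 0.25 and 3 TPM, and 96 to 120 with 1 animal left out. With on set at 1.0 TPM, 0.5 TPM or above every vehicle animal, the numbers on at 9 h were 16, 44 and 29 for the low dose and 21, 49 and 39 for the high dose, and at 33 h were 9, 58 and 45 for the low dose. Asking for all 5 animals gave 1, 2 and 0, against 2, 4 and 1 of all 8264 near-silent transcripts. A mean of at least 1.5 TPM gave 12 with the low dose at 33 h, against 35 of the 8264. With 1 animal left out, added after the data were examined, the ranges were 4 to 8, 4 to 9 and 0 to 5. The drops came without animals 35, 36 or 37, without 38, 40 or 42, and without 48, 51 or 52. Any transcript on in exactly 3 animals drops out when 1 of them is left out. Between the doses at 9 h, none of the transcripts was called under any alternative, leave-one-out included (0 to 0), while DESeq2 called 32 of all transcripts tested. Between times at the low dose, 0 were called at an adjusted p of 0.05, 9 with all 30 animals in 1 fit (8.74% of 103, against 12.4% of all transcripts; 7 higher, 2 lower) and 7 with DESeq2 (6.80% against 9.47%; 5 higher, 2 lower), and 0 to 2 with 1 animal left out (2 lower without animal 33, 1 higher without animal 49). Against vehicle, the low dose at 9 h had 10 called at an adjusted p of 0.05 (9.71%, against 7.4% of all called higher), and 10 to 24 with 1 animal left out (10 to 12 without 35, 36, 37, 58, 59 or 60), and the high dose at 9 h had 20 to 38. The low dose at 33 h had 22 with all 30 animals (21.4% against 3.82%), 13 with DESeq2 (12.6% against 4.06%), 40 with all 10 vehicle animals (38.8% against 7.59%), and 0 to 22 with 1 animal left out (22 without animal 49, 21.4% against 5.22%). Nothing is read from the counts against vehicle, whose values the rule used. The cause was not tested. For single counts under settings other than leaving out an animal, 35 changed by no more than 1.5 times and 21 by more. The same setting can be among both, and counts that stayed at 0 are among the 35. The median in place of the mean gave 125 transcripts, 84 of them shared with the 109, and TPM scaled by TMM factors gave 101.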
